A study of Mus musculus with 6 samples.

Results

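Cold-shock RNA-binding proteins are small proteins that bind single-stranded RNA, and the transcripts of 5 of them, Rbm3, Cirbp, Ybx1, Ybx3 and Carhsp1, were examined in infarcted mouse hearts. The genes were chosen by name, as the mouse members of this class best known for cold or heat stress, and were taken from the count table by Ensembl ID. All 5 were found among the 55401 genes of the table, and all 5 passed the filter on low counts that left 16757 genes. Heart tissue came from mice with myocardial infarction, in which muscle dies where a coronary artery no longer supplies it. One group was kept in mild cold, 16 °C for 7 days (3 libraries), and the other at room temperature, 22 °C, for a time that the labels do not give (3 libraries). The labels give no strain, sex, age, time since the infarct, body temperature or heart temperature, and do not say whether replicates were separate animals, so p-values measure the spread between these libraries only.

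RBM3 and CIRBP each carry a single RNA recognition motif and a glycine-rich tail. In cultured mammalian cells moved to a moderately lower temperature, both are the classic transcripts that increase, and both proteins bind mRNA and influence its stability, its translation and the choice of its polyadenylation site. YBX1 (YB-1), YBX3 (DbpA) and CARHSP1 instead carry a cold-shock domain, a fold shared with the bacterial cold-shock proteins, which packages mRNA and affects its translation and stability. Their membership of the family rests on that domain, and it does not by itself mean that their transcripts respond to temperature. The comparison asked whether hearts of mice kept in mild cold show a cold-shock response in these transcripts.

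For 4 of the 5 genes, all but Rbm3, a promoter window was taken from RefSeq on GRCm38.p6, an earlier build than the GRCm39 of the counts. The window is the 250 bases before an annotated start, and the parts printed here leave out bases that GENCODE M21 assigns to an exon. They are shown because Cirbp is the gene whose promoter has a described temperature element. That element is the octamer TCCCCGCC, named the mild-cold responsive element in work on the mouse Cirbp promoter. The other motif searched is ATTGG, the core of the Y-box for which the YBX proteins are named, which reads CCAAT on the other strand. Both strands were searched, and capitals mark the matches to either motif, which share no base here.
Cirbp (chr10:80167589-80167777, + strand): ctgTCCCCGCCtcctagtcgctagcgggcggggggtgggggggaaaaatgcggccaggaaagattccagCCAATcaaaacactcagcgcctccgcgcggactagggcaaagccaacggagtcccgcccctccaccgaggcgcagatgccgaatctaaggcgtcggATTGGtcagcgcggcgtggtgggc
Ybx1 (chr4:119294605-119294763, - strand): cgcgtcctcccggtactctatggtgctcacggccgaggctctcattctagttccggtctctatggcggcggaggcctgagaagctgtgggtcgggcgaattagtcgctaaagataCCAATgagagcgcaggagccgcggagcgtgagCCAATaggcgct
Ybx3 (chr6:131388477-131388700, - strand): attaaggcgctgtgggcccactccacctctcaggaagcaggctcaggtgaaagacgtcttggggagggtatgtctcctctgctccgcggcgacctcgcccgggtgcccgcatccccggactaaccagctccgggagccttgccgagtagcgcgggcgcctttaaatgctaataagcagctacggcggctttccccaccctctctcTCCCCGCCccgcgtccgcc
Carhsp1 (chr16:8672156-8672403, - strand): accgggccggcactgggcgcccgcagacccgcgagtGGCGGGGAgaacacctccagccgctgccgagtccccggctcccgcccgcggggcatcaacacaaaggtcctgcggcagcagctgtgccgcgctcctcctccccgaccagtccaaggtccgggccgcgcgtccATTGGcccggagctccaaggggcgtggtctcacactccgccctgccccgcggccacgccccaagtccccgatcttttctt

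The octamer began 247 bases before the Cirbp start and 45 bases before the Ybx3 start on the strand of the gene, and 214 bases before the Carhsp1 start on the other strand. It was not in the Ybx1 window, nor in a second Cirbp window at a start further downstream. Among all promoter windows of this length it was found in 4.64% of 32851. ATTGG or CCAAT occurred in 33.8% of windows, among them those of Cirbp, Ybx1 and Carhsp1, with a further Ybx1 match 52 bases before the start in the part not printed. In the hearts, 2 of the 3 genes with the octamer, Cirbp and Ybx3, stood higher in mild cold on average with TMM scaling but not with library totals only, and Carhsp1 stood lower with both. Ybx1, without the octamer, was also higher with TMM scaling (log2 fold change 0.18) but not with library totals only. Of all 16757 genes tested, 8000 had a positive fold change with TMM scaling. A match to these letters is a description of the sequence and not of a site in use.

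The libraries of mild cold hearts held 42139438 to 65285901 counts, and those of room temperature hearts 41619023 to 63946671. Mitochondrially encoded genes took 34.4% to 41.0% of the counts of mild cold libraries and 26.2% to 31.6% of those at room temperature. Some libraries stood apart. Room temperature 1 held 28312 counts of Myl7, an atrial myosin light chain, against at most 18 in every other library, 32000 counts of Scgb1a1, an airway secretory protein, against at most 102, and 8688 counts of Ucp1, the brown fat uncoupling protein, against at most 2. By Myl7, every other library held next to no atrial muscle. Whether all libraries took in the same parts of the heart is not known. Mild cold 1 and 3 held 7248 and 7462 counts of Alb, the liver's serum albumin, against at most 879 elsewhere. The fat product Adipoq had 9606 counts in room temperature 1 and 4219 in room temperature 3, against at most 802 elsewhere. Results on the 5 genes are also given without room temperature 1, and their range with each other library left out is in the plot of alternatives. Heart muscle itself was well represented in every library, with 12 cardiomyocyte markers summing to 45573 to 52645 CPM in mild cold hearts and 30520 to 44407 CPM in room temperature hearts. CPM here are counts scaled to library totals that edgeR corrected with its TMM factors.

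No rise of Rbm3 accompanied mild cold in these hearts. Rbm3 (ENSMUSG00000031167.16, chromosome X) stood at 48.0, 45.7 and 43.9 CPM in the libraries mild cold 1 to 3, against 62.0, 53.6 and 55.0 CPM in the libraries room temperature 1 to 3. Every mild cold library lay below every room temperature library. The means were 45.9 ± 2.10 CPM in mild cold hearts and 56.9 ± 4.49 CPM in room temperature hearts (SD, n = 3 each). The log2 fold change, mild cold over room temperature, was -0.31 (SE 0.09), a fold of 0.807 with a 95% interval of 0.696 to 0.935. By edgeR's quasi-likelihood test the unadjusted p was 0.0104 and the adjusted p over all genes 0.150, so the difference did not pass the threshold of 0.05. The exact 2-sided permutation test on log2(CPM + 1) gave p = 0.1, the smallest that 3 against 3 libraries allow. Without room temperature 1 the log2 fold change was -0.25 (unadjusted p = 0.0351, edgeR adjusted p = 0.292).

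Cirbp (ENSMUSG00000045193.13, chromosome 10), the other classic cold-inducible transcript, stood at 27.0, 30.7 and 29.4 CPM in mild cold, against 24.5, 18.8 and 31.5 CPM at room temperature. The groups overlapped, since room temperature 3 was the highest of the 6 libraries and room temperature 2 the lowest. The means were 29.0 ± 1.90 CPM in mild cold hearts and 25.0 ± 6.33 CPM in room temperature hearts (SD, n = 3 each). The fold was 1.16, with a 95% interval of 0.869 to 1.55 (log2 fold change 0.22, SE 0.18), with an adjusted p of 0.546 from edgeR and an exact permutation p of 0.4. A change of up to 1.55-fold therefore lay within the interval, and the highest upper bound among the alternatives tried was 1.82. The estimate depended on single room temperature libraries: the log2 fold change was 0.20 with room temperature 1 left out, 0.07 with room temperature 2 and 0.42 with room temperature 3 left out (unadjusted p = 0.0254, edgeR adjusted p = 0.283).

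**Figure D1:**
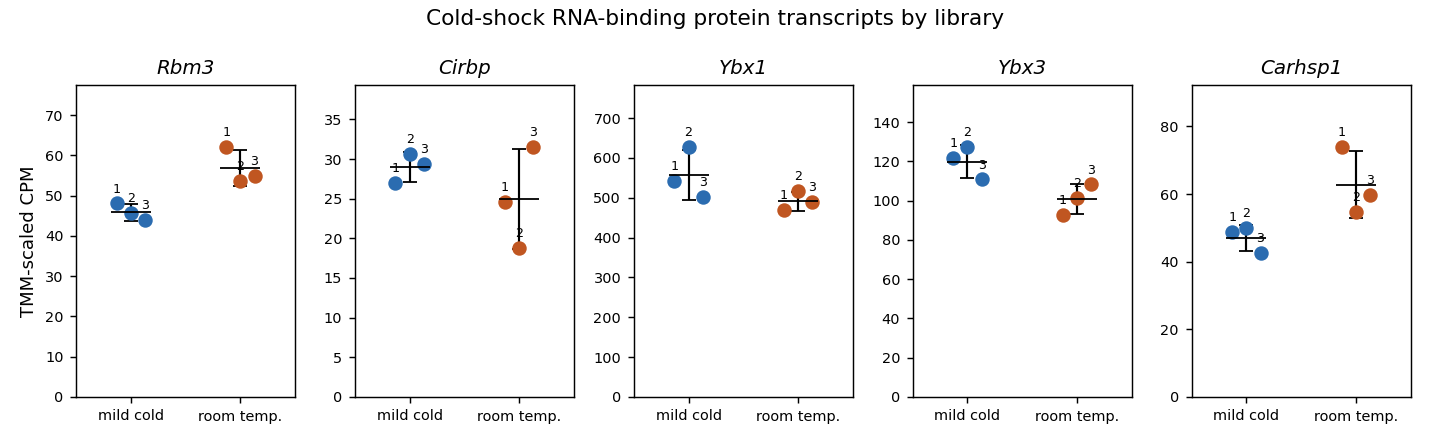
Level of each gene in TMM-scaled CPM (y axis from 0, a scale of its own per gene) in the 3 mild cold libraries (left, blue) and the 3 room temperature libraries (right, orange), numbered by replicate, with the mean and SD in black. Rbm3 and Carhsp1 were lower and Ybx3 higher in all mild cold libraries than in all room temperature libraries, and Cirbp and Ybx1 overlapped; with library totals only, Cirbp, Ybx1 and Ybx3 stood slightly below 0 in log2 fold change.

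Because both genes are read from the same library, the ratio of their counts does not depend on how libraries are scaled. Rbm3 had 1.78, 1.49 and 1.49 counts for each count of Cirbp in mild cold 1 to 3, against 2.53, 2.85 and 1.75 in room temperature 1 to 3. The ratio was lower in mild cold on average, but mild cold 1 lay just above room temperature 3. The difference of the mean log2 ratios was -0.56 (0.66 ± 0.15 in mild cold and 1.22 ± 0.37 at room temperature, SD, n = 3 each, exact permutation p = 0.2). The ratio is of raw counts, not corrected for transcript length, and says how the genes moved against each other only.

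Of the cold-shock-domain members, Ybx1 (ENSMUSG00000028639.14, chromosome 4), the general mRNA-packaging protein YB-1, stood at 543, 626 and 501 CPM in mild cold, against 468, 516 and 489 CPM at room temperature. Only mild cold 3 lay within the room temperature range. Its fold was 1.13 (95% interval 0.927 to 1.38, edgeR adjusted p = 0.463, exact permutation p = 0.2), and the log2 fold change of 0.18 became 0.15 without room temperature 1. Ybx3 (ENSMUSG00000030189.15, chromosome 6), its close relative DbpA, stood at 122, 127 and 111 CPM in mild cold, against 92.6, 102 and 108 CPM at room temperature. All mild cold libraries were above all room temperature libraries, by a narrow margin between mild cold 3 and room temperature 3. The fold was 1.19 (95% interval 1.01 to 1.40, unadjusted p = 0.0414, edgeR adjusted p = 0.235, exact permutation p = 0.1), and without room temperature 1 the log2 fold change was 0.19 (unadjusted p = 0.136, edgeR adjusted p = 0.478).

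Carhsp1 (ENSMUSG00000008393.9, chromosome 16) encodes a calcium-regulated heat-stable phosphoprotein that stabilises Tnf mRNA in macrophages. It stood at 48.7, 49.9 and 42.5 CPM in mild cold, against 73.8, 54.7 and 59.8 CPM at room temperature. The groups did not overlap, and room temperature 1 was the highest library. The fold was 0.749 (95% interval 0.607 to 0.926), with a log2 fold change of -0.42 and an SE of 0.13 (unadjusted p = 0.0142, edgeR adjusted p = 0.163, exact permutation p = 0.1). Without room temperature 1 the log2 fold change was -0.28 (unadjusted p = 0.0367, edgeR adjusted p = 0.296), and without mild cold 3 it was -0.35 (unadjusted p = 0.0557).

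**Figure D2:**
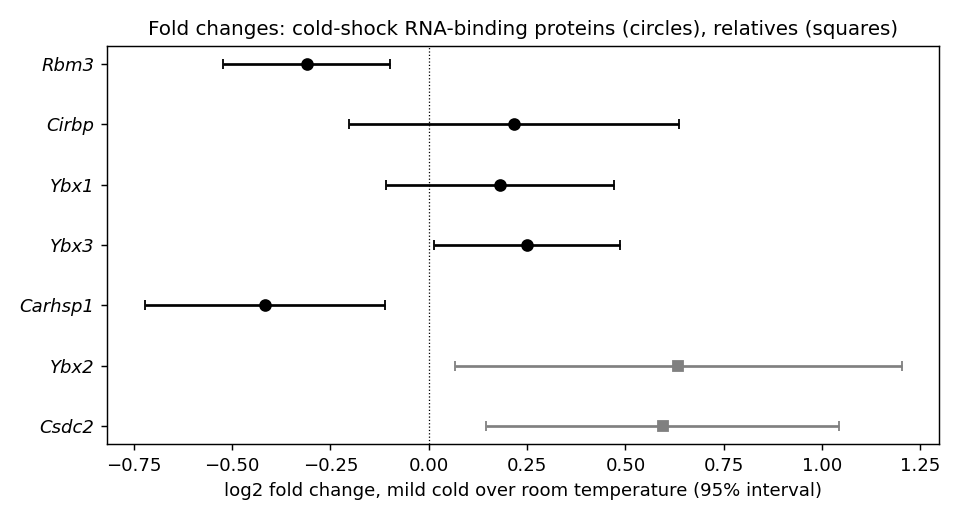
Log2 fold change of mild cold over room temperature with its 95% interval from edgeR (x axis) for the 5 cold-shock RNA-binding proteins (black circles) and the relatives Ybx2 and Csdc2 (grey squares). The interval of Rbm3 lies below 0, from -0.52 to -0.10, and that of Cirbp spans 0, from -0.20 to 0.64.

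Of the 5, 0 had an adjusted p under 0.05 by edgeR, against 0% of all genes tested, and 0 under 0.1, against 2.36%. By the DESeq2 Wald test it was 0 of 5, against 6.82% of genes. An unadjusted p under 0.05 was found for 3 of 5, against 19.7% of all genes: 2 were lower in mild cold, against 10.6%, and 1 was higher, against 9.11%. Groups did not overlap for 3 of 5, against 25.1% of all genes, with 2 lower (13.1%) and 1 higher (12%). With so few genes, and so many in the background, these shares are given as a description. The median log2 fold change of the 5 was 0.18, against -0.02 over all genes tested, with 3 positive and 2 negative values under TMM scaling and 0 positive with library totals only. Under TMM scaling the cold-inducible pair was split in sign, and so were the cold-shock-domain members. Without room temperature 1, 2 of 5 were lower at an unadjusted p under 0.05, against 8.43% of all genes in that fit, and 0 higher, against 6.8%.

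Marker sums of some other cell types differed between the groups and others overlapped, and 0 markers passed edgeR's adjusted p of 0.05. The DESeq2 Wald test called 6 of 12 cardiomyocyte and 5 of 11 fibroblast markers, against 6.82% of genes. Fibroblast markers summed to 2436 to 3995 CPM in mild cold hearts and 4214 to 6458 CPM in room temperature hearts. All 11 had a negative fold change, 8 of them at an unadjusted p under 0.05, against 10.6% of all genes. That number was 4 without mild cold 1 or without room temperature 3, against 7.73% and 8.59% of all genes in those fits. Adipocyte markers summed to 0.161 to 118 CPM in mild cold hearts and 122 to 1146 CPM in room temperature hearts, with 7 of 7 negative and Plin1, Retn and Cidec at 0 counts in mild cold 2. Cardiomyocyte markers had 12 of 12 positive, erythroid markers 7 of 7, endothelial markers 8 of 10 and hepatocyte markers 9 of 10. Sums of the erythroid, endothelial and hepatocyte markers overlapped between the groups. Fabp4 was the largest part of the endothelial sum in every library, with 71220 counts in room temperature 1 and 25292 in room temperature 2. Of the 10 endothelial markers, 5 were higher in mild cold without overlap and 0 lower, against 12% and 13.1% of all genes. Of the hepatocyte markers (median log2 fold change 3.09), 6 were higher at an unadjusted p under 0.05, against 9.11% of all genes. Their sums were 12.3 to 390 CPM in mild cold hearts, lowest in mild cold 2, and 95.9 to 536 CPM in room temperature hearts. Cyp2e1, the only negative gene of the 10, was most of the sum in every room temperature library, at 512, 59.2 and 202 CPM. Its levels in mild cold 1, 2 and 3 were 21.7, 1.02 and 91.5 CPM. The overlap of these sums therefore says little about the other hepatocyte markers. Without mild cold 1 or mild cold 3, only 1 of 10 hepatocyte markers was higher at an unadjusted p under 0.05, against 6.2% and 5.92% of all genes. Smooth muscle and pericyte markers summed to 1961 to 1989 CPM in mild cold hearts and 1615 to 1728 CPM in room temperature hearts, with 4 of 9 positive. Rgs5 was the largest part of that sum in every library. Without overlap, 3 of the markers were higher and 4 lower in mild cold (12% and 13.1% of all genes). Among the lower ones was Cnn1, at 126 to 138 counts in mild cold and 308 to 1613 at room temperature. Macrophage and leukocyte markers had 11 of 13 negative and overlapping sums of 464 to 625 CPM in mild cold hearts and 488 to 835 CPM in room temperature hearts. The library with the highest Rbm3 and Carhsp1, room temperature 1, also had the most adipocyte, atrial and lung transcripts. Without it Rbm3 and Carhsp1 were lower in mild cold as well, but marker differences remained. In that fit 8 of 11 fibroblast markers were lower at an unadjusted p under 0.05, against 8.43% of all genes. Adipocyte sums in room temperature 2 and 3, at 122 and 406 CPM, also lay above every mild cold library. The part of cell makeup in these differences was not tested. In whole tissue, fewer cells of a type and less RNA per cell cannot be told apart. Sums of 12 markers of dividing cells overlapped, at 56.2 to 80.1 CPM in mild cold hearts and 69.9 to 90.4 CPM in room temperature hearts.

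Set against each other per kilobase of exon, Ybx1 was the most abundant of the 5, at 405 to 528 TPM over the 6 libraries, a unit that divides counts by exon length and scales them to the library. Ybx3 followed at 70.8 to 96.2 TPM and Carhsp1 at 29.9 to 70.5 TPM. Rbm3 (16.6 to 36.0 TPM) and Cirbp (16.3 to 33.0 TPM) did not differ beyond their spread. The range of Carhsp1 overlapped with both, but within each library Carhsp1 stood above both. With the length of the principal transcript in place of all exons, the ranges were 28.0 to 60.6 for Rbm3 and 32.2 to 65.1 for Cirbp. Only the gene's own length was changed for these, and the scaling to the library still used all exons, so they are not strict TPM. Carhsp1, unaltered by that choice, then stood level with them, so their order depends on the length used. TPM is used here for levels between genes only, since it is scaled to totals that differ in their mitochondrial share.

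Few counts fell on genes whose exons overlap those of the 5 by position, or on pseudogenes that carry their names. Other genes of like sequence were not searched for. Rbm3 shares 94 of its 4698 exon bases with its antisense gene Rbm3os, which held at most 15 counts, and the pseudogenes Rbm3-ps and Ybx1-ps2 held at most 12 and 22 counts. The strand setting of the counting is not given in the sources used here. The lowest count of any of the 5 genes in any library was 786 (Cirbp in room temperature 2).

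Other genes with a cold-shock domain were described by the same test. Csdc2, an RNA-binding protein first described in brain, stood at 32.8, 21.9 and 34.4 CPM in mild cold, against 19.2, 23.0 and 17.0 CPM at room temperature. Mild cold 2 lay within the room temperature range, and the other mild cold libraries above it (fold 1.51, 95% interval 1.11 to 2.06, unadjusted p = 0.0163, edgeR adjusted p = 0.169). Ybx2, the germ-cell member of the Y-box family, stood at 14.5, 9.25 and 10.1 CPM in mild cold, against 7.28, 9.15 and 5.44 CPM at room temperature. Its groups did not overlap, with mild cold 2 and room temperature 2 nearly level (fold 1.55, interval 1.05 to 2.30, unadjusted p = 0.0330, edgeR adjusted p = 0.216). Lin28a and Lin28b, which block maturation of let-7 miRNAs, did not pass the filter, with at most 2 and 24 counts in a library of either group. Neither Csdc2 nor Ybx2 passed the adjusted threshold, by edgeR or by the DESeq2 Wald test, and the unadjusted p of both was above 0.05 when mild cold 1 or room temperature 3 was left out. With room temperature 1 left out, the log2 fold change of Csdc2 was 0.58 (unadjusted p = 0.0361) and that of Ybx2 0.64 (unadjusted p = 0.0598).

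Upstream of Rbm3 and Cirbp, 0 of 17 tested regulators passed edgeR's adjusted threshold and 1 the DESeq2 Wald test, against 0% and 6.82% of all genes. At an unadjusted p under 0.05 there were 1 higher and 3 lower, against 9.11% and 10.6% of all genes (median log2 fold change -0.02). With any single library left out there were 0 or 1 higher and 1 or 2 lower, where 5.92% to 11.1% of all genes were higher and 7.73% to 10.2% lower, so these counts are near the background. Hsf1, the heat-shock transcription factor, stood at a log2 fold change of 0.05 (SE 0.12), Sp1, which binds GC-rich promoters, at -0.11 (SE 0.10), and Trpv4, a warmth-activated channel, at 0.00 (SE 0.23). Hnrnph1, a splicing factor linked to the temperature-dependent exon of human RBM3, was at -0.17 (SE 0.10). Of the 4 with the smallest p, Ntrk2, the neurotrophin receptor TrkB, stood at 0.878, 0.804 and 1.56 CPM in mild cold, against 26.8, 2.59 and 5.19 CPM at room temperature. The groups did not overlap, and room temperature 1 was far above the rest (log2 fold change -3.42, unadjusted p = 0.00525, edgeR adjusted p = 0.122, and -1.86 without that library). Plcg1, a phospholipase downstream of such receptors, was at 0.27, Hif1a, the oxygen-regulated transcription factor, at -0.25 and Creb1, the cAMP-responsive factor, at -0.18, with edgeR adjusted p of 0.201, 0.219 and 0.249. Trpm8, the cold and menthol receptor, held at most 2 counts in any library.

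The splicing kinases of the CLK family, whose activity in mammalian cells depends on small changes in body temperature, were near level, with log2 fold changes of 0.10 (SE 0.14) for Clk1 and 0.01 (SE 0.13) for Clk4. Of 14 CLK kinases and SR splicing proteins, 0 passed the adjusted threshold by edgeR (0% of all genes) or DESeq2 (6.82%), with a median of -0.08. At an unadjusted p under 0.05, 0 were higher, against 9.11% of all genes, and 1 was lower, against 10.6%. That gene was Srsf7, at 68.5, 62.5 and 54.1 CPM in mild cold, against 74.0, 76.2 and 70.7 CPM at room temperature, without overlap (log2 fold change -0.25, edgeR adjusted p = 0.241). With 1 library left out, the unadjusted p of Srsf7 was 0.0200 without mild cold 1 and 0.0597 to 0.162 in the other fits. Srsf11, Srsf10 and Clk2, next by p, stood at -0.28, -0.17 and -0.17. Of 12 tested RNA-binding relatives of RBM3 and CIRBP, 0 had even an unadjusted p under 0.05, against 19.7% of all genes (median -0.01). The 4 with the smallest p were Hnrnpd (0.16), Hnrnpa2b1 (0.16), Rbmxl1 (-0.20) and Tra2a (-0.13).

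Transcripts reported as bound or stabilised by the 5 proteins, mostly in cultured cells, were examined next. Of 15 tested, 0 passed by edgeR and 1 by the DESeq2 Wald test, against 0% and 6.82% of all genes. At an unadjusted p under 0.05 there were 1 higher and 4 lower, against 9.11% and 10.6% of all genes (median log2 fold change -0.03). With 1 library left out, the number lower was 1 (leaving out mild cold 2, mild cold 3 or room temperature 2), 2 (room temperature 3), 4 (mild cold 1) or 5 (room temperature 1), against 7.73% to 10.2% of all genes in those fits. Clock, the circadian activator whose mRNA CIRBP binds, stood at 64.7, 52.2 and 55.8 CPM in mild cold, against 69.6, 79.0 and 69.6 CPM at room temperature. No library of one group reached the range of the other (log2 fold change -0.34, SE 0.11, unadjusted p = 0.0158, edgeR adjusted p = 0.168). Slc3a2, an amino acid transporter subunit whose mRNA YBX3 binds in human cells, was at -0.34 (edgeR adjusted p = 0.150). The clock genes Arntl (-1.12) and Nr1d1 (-0.33) had edgeR adjusted p of 0.196 and 0.206. Other clock genes of the list were positive: Dbp, a clock output factor and the list's 1 higher gene, at 0.32 (unadjusted p = 0.0496, edgeR adjusted p = 0.253), and the clock repressors Cry1 at 0.34 (SE 0.21) and Per1 at 0.16 (SE 0.10), while Per2 was at -0.03 (SE 0.27). The labels give no time of day for the tissue. Rtn3, whose translation RBM3 raises in mouse brain, was at -0.17 (SE 0.10), Txn1, a thioredoxin whose mRNA CIRBP binds, at 0.03 (SE 0.13), and the transient outward potassium channel genes Kcnd2 and Kcnd3, linked to CIRBP in rat heart, at 0.73 (SE 0.37) and 0.51 (SE 0.30). Tnf did not pass the filter, with at most 12 counts in a mild cold library and 32 in a room temperature library. Of 20 tested stress-granule and mRNA-binding partners, 0 passed by edgeR (0% of all genes) or DESeq2 (6.82%), with a median of 0.04. At an unadjusted p under 0.05, 0 were higher, against 9.11% of all genes, and 1 was lower, against 10.6%. It was Pabpc1, the cytoplasmic poly(A)-binding protein, at -0.36 (edgeR adjusted p = 0.219). Igf2bp2 stood at -0.36 and Fmr1 at -0.23.

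Heat-shock genes are the counterpart in the other direction, as chaperones that increase with heat. Of 23 tested, 0 passed edgeR's adjusted threshold and 1 the DESeq2 Wald test, against 0% and 6.82% of all genes. At an unadjusted p under 0.05 there were 1 higher and 3 lower, against 9.11% and 10.6% of all genes. The median log2 fold change was -0.15, against -0.02 over all genes. Hsp90aa1, the inducible HSP90, stood at 321, 343 and 246 CPM in mild cold, against 658, 510 and 351 CPM at room temperature. The groups did not overlap, but mild cold 2 and room temperature 3 were close (log2 fold change -0.74, SE 0.24, edgeR adjusted p = 0.170). Fkbp4, an HSP90 cochaperone, was higher, at 288, 229 and 234 CPM in mild cold, against 177, 214 and 164 CPM at room temperature, without overlap (log2 fold change 0.43, edgeR adjusted p = 0.177). The inducible HSP70 gene Hspa1b stood at 20.3, 8.42 and 3.78 CPM in mild cold, against 143, 51.0 and 9.67 CPM at room temperature, and its near-identical copy Hspa1a had the same order of libraries within each group. Both overlapped between groups, and reads can be shared between them. Their log2 fold changes were -2.63 and -2.22 (edgeR adjusted p = 0.201 and 0.226), and -1.47 and -1.05 without room temperature 1. Without that library the median of the 23 genes was -0.04, with 1 higher and 1 lower at an unadjusted p under 0.05, against 6.8% and 8.43% of all genes. The counts turned on other libraries too. Without room temperature 3 there were 0 higher and 9 lower (median -0.34), against 6.2% and 8.59% of all genes in that fit. Without mild cold 3 there were 2 higher and 0 lower (median -0.06), against 5.92% and 7.74%.

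**Figure D3:**
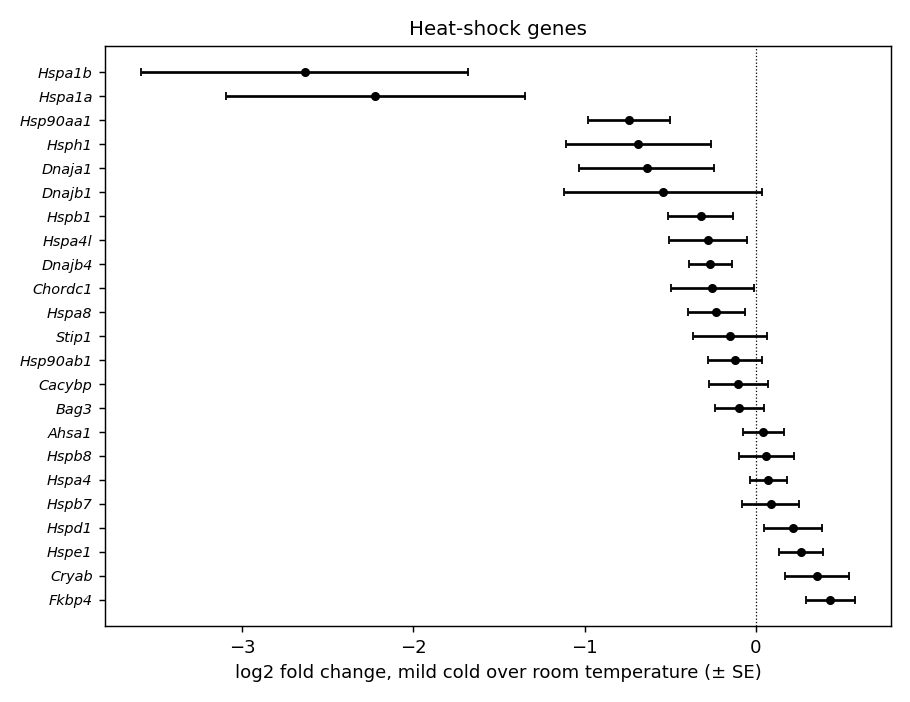
Log2 fold change of mild cold over room temperature with its SE from edgeR (x axis) for the 23 heat-shock genes, ordered by value. The inducible HSP70 genes Hspa1b (-2.63) and Hspa1a (-2.22) lie farthest to the left with wide errors, and the constitutive Hspa8 (-0.23) and Hsp90ab1 (-0.12) near 0.

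Among genes of heat production in brown fat, 0 of 8 tested passed edgeR's adjusted threshold and 2 the DESeq2 Wald test, against 0% and 6.82% of all genes. At an unadjusted p under 0.05, 1 was higher and 2 were lower, against 9.11% and 10.6% of all genes. Without room temperature 1 there were 3 higher and 1 lower, against 6.8% and 8.43%. Dio2, which activates thyroid hormone, stood at 13.8, 19.8 and 16.5 CPM in mild cold, against 57.5, 45.2 and 39.9 CPM at room temperature, with a wide gap between the groups (log2 fold change -1.51, SE 0.18, edgeR adjusted p = 0.0813). Cox8b, a cytochrome c oxidase subunit of heart and brown fat, was at 0.58 (SE 0.11, edgeR adjusted p = 0.0944). The median of the 8 genes was -0.87 and 0.02 without room temperature 1, the library with the Ucp1 counts. Cidea, a lipid droplet protein of brown fat, had a log2 fold change of -1.74 with that library and 0.34 without it. Adrb3, the beta-3 adrenergic receptor of fat, stood at 0.0325, 0 and 1.16 CPM in mild cold, against 11.8, 1.29 and 5.56 CPM at room temperature. Its log2 fold change of -4.01 (SE 1.38, edgeR adjusted p = 0.186) depended on mild cold 3, without which it was -8.13, and was -3.16 without room temperature 1.

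Each gene was also set beside the 10375 other genes with a mean of at least 5 CPM, by the root mean square difference of log2(CPM + 1) profiles over the 6 libraries, each centred on its mean. Nearest to Rbm3 were Kmt2e (0.035), Arl8a (0.037) and Tbl1x (0.038), against a median difference of 0.239 over all candidates. Nearest to Cirbp were Helb (0.023), Chek2 (0.059) and Myo6 (0.079). Nearest to Ybx1 were Dbr1 (0.026), Tm2d1 (0.028) and Cops9 (0.030), to Ybx3 Nudt9 (0.028), Mrto4 (0.029) and Mrpl20 (0.030), and to Carhsp1 Pxdc1 (0.037), Cachd1 (0.045) and Trim16 (0.050). Among the 5 themselves, the closest pairs were Ybx1 with Ybx3 (0.079) and Rbm3 with Carhsp1 (0.094). Rbm3 and Cirbp differed by 0.349, more than the median over all candidates for either gene (0.239 and 0.298).

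**Figure D4:**
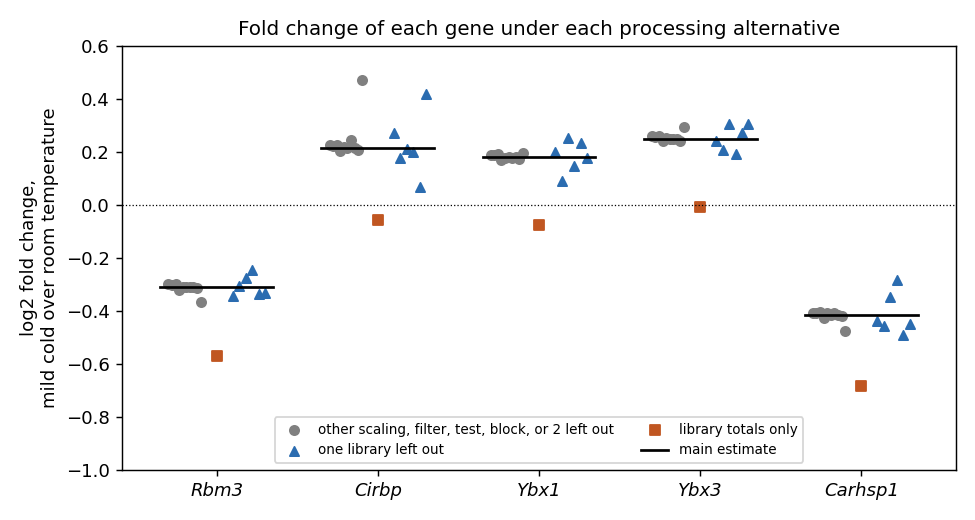
Log2 fold change of mild cold over room temperature (y axis) of each gene under 17 processing alternatives, with the main estimate as a black line, alternatives of scaling, filter, test or design and the omission of 2 libraries in grey, single omitted libraries as blue triangles and library totals only as orange squares. Rbm3 and Carhsp1 stay below 0 throughout, while Cirbp, Ybx1 and Ybx3 lie above 0 except with library totals only (-0.06, -0.08 and -0.01).

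Across 17 alternatives the log2 fold change of Rbm3 ran from -0.57 to -0.25 and that of Carhsp1 from -0.68 to -0.28. The sign of Cirbp, Ybx1 and Ybx3 depended on scaling: with library totals only they were at -0.06, -0.08 and -0.01. That scaling moved the median of all genes to -0.27, and relative to it the 3 genes stood at 0.22, 0.20 and 0.27, with Rbm3 at -0.29 and Carhsp1 at -0.41. In none of the 17 alternatives did any of the 5 genes reach an adjusted p under 0.05, where the lowest was 0.0582 for Rbm3 with library totals only.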

How the data were processed

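RNA-seq of heart tissue (6 libraries, 3 a group) used TRIzol extracts enriched for mRNA, per the labels' protocols. The authors deposited raw counts for each gene, made with featureCounts 2.0.3 on GRCm39 per the submitters' processing notes. No source used here gives the aligner, annotation, strand setting or treatment of read pairs. Of counts from 1 to 10, 71.9% to 78.3% per library were even; whether both mates of a pair were counted was not tested. Symbols were matched on Ensembl IDs to GENCODE M21 (55141 of 55401 rows), which also gave exon lengths.

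The main test was edgeR 4.0.16 under R 4.3.3 (quasi-likelihood test, 2-sided, default filter by group, TMM, group as the only term), with Benjamini-Hochberg adjustment over 16757 genes. Alternatives used DESeq2 1.42.0, limma 3.58.1, other scalings and filters, a replicate block and omitted libraries. Intervals cover the spread between libraries. Named genes were the 5 members, other cold-shock-domain genes, up to 4 of each biology list by smallest p, and the 3 nearest profiles per member; others were chosen after their values were seen, and some genes under this rule are not reported here. Members and lists were chosen with earlier results of these data known. No pair of libraries held the same values.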

Additional observations from a re-analysis of the deposited data

How the results depend on the processing

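Scaling to library totals only turned Cirbp to -0.0585, Ybx1 to -0.0777 and Ybx3 to -0.009 on the log2 scale, none past the threshold, and moved the median of all genes from -0.02 to -0.27. The other 16 alternatives gave each of the 5 genes the direction of the main estimate. With a single library left out, the log2 fold change was -0.34 to -0.25 for Rbm3, 0.07 to 0.42 for Cirbp, 0.09 to 0.25 for Ybx1, 0.19 to 0.31 for Ybx3 and -0.49 to -0.28 for Carhsp1. The unadjusted p stayed under 0.05 in 17 of 17 alternatives for Rbm3, 16 for Carhsp1, 8 for Ybx3, 2 for Cirbp and 0 for Ybx1. The number of the 5 genes past an adjusted p of 0.05 was 0 in every fit. In the main fit it was also 0 at 0.01 and 0.1, while Carhsp1 was under 0.1 by the DESeq2 Wald test (adjusted p = 0.0920), and Rbm3 (0.0582) and Carhsp1 (0.0599) were with library totals only in edgeR.

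The number of all genes called was 0 in the main fit, 1235 with the DESeq2 Wald test, 356 with library totals only, 184 without an expression filter, 1 with the replicate block, 0 to 2 with a single library left out, and 396 at an adjusted p under 0.1. The cause of these differences was not tested. Deviations of same-numbered libraries from their group means correlated at 0.0958, -0.179 and -0.099. Libraries of unlike number ran from -0.374 to 0.39. With 3 libraries a group, such correlations cannot decide whether libraries of the same number were handled together. The replicate block gave Rbm3 -0.31, Cirbp 0.24, Ybx1 0.18, Ybx3 0.25 and Carhsp1 -0.41. The difference of the log2 ratio of Rbm3 to Cirbp was -0.76 to -0.41 with a single library left out. Pseudocounts of 0.5 and 5 CPM left every exact p as it was.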
